A study of Homo sapiens with 18 samples.

Results

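Libraries of the human microglial cell line HMC3 are compared here, 6 in number: 3 from cells given oxidized low-density lipoprotein (oxLDL) at 100 µg/ml for 24 h and 3 from cells kept for the same time at 0 µg/ml. The labels call all of them wild type and give them 1 batch value. These 6 libraries belong to a dose series of 18, which also holds 3 libraries each at 1, 2.5, 10 and 50 µg/ml, and poly-A RNA was sequenced in all of them. The values are FPKM, fragments scaled by transcript length and library total. Genes reaching an FPKM of 0.5 in 3 or more of the 6 libraries entered the comparison, 11842 of the 13992 in the table. Whether libraries at 1 dose stem from separate cultures is not stated in the labels. The p-values therefore reflect only how these libraries vary, and that variation may be technical.

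HMC3 is an immortalized line used as a stand-in for human microglia, the resident macrophages of brain and retina. Oxidized LDL is an LDL particle whose lipids and protein have been altered by oxidation. Scavenger receptors take it up, its cholesterol and lipid peroxides reach the lysosome, and cells that take up much of it store lipid in droplets. Its reactive lipids are known to modify KEAP1, which releases the transcription factor NRF2 to act on antioxidant response elements, and the sterol it delivers is known to hold back the SREBP factors that drive cholesterol synthesis.

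The cell type label was compared with marker genes. Of 20 markers of microglia and macrophages, CD14, CD68 and MERTK were listed, and the summed FPKM of these 3 ranged from 15.9 to 17 in the controls and from 18.6 to 20.6 with oxLDL. The defining genes AIF1, CX3CR1, P2RY12, TMEM119, CSF1R, ITGAM, PTPRC, TREM2, TYROBP and SPI1 are not among the symbols analysed here. Of 12 markers of fibroblasts and pericytes 8 were listed, and their sum ranged from 591 to 646 in the controls and from 420 to 469 with oxLDL. Astrocyte markers (3 of 7 listed) summed to 38.6 to 41.4 and 34.7 to 39, endothelial ones (2 of 7) to 19.6 to 20.6 and 21.3 to 21.8, neuronal ones (2 of 7) to 1.08 to 1.5 and 1.48 to 1.89, and MBP of oligodendrocytes lay under 0.1 FPKM throughout. The text therefore refers to HMC3 cells and not to microglia.

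Of the 11842 genes tested, 1879 (15.9%) were called at an adjusted p under 0.05, 967 higher and 912 lower at 100 µg/ml. The test was limma on log2(FPKM + 0.5), with p-values adjusted by Benjamini-Hochberg over all genes, and "fold" below means the log2 fold change on that scale, given with its standard error (SE). The median fold of all genes tested was -0.003. The called changes were mostly small, with a median absolute fold of 0.228 among genes that rose and 0.254 among those that fell. Of the called genes 1001 (53.3%) moved by less than 0.25. An absolute fold of at least 0.5 was reached by 123 genes that rose and 105 that fell, and one of at least 1 by 21 and 8. All 3 libraries of 1 dose lay above all 3 of the other in 3994 genes (33.7% of those tested), and this held for 1861 of the called genes.

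**Figure D1:**
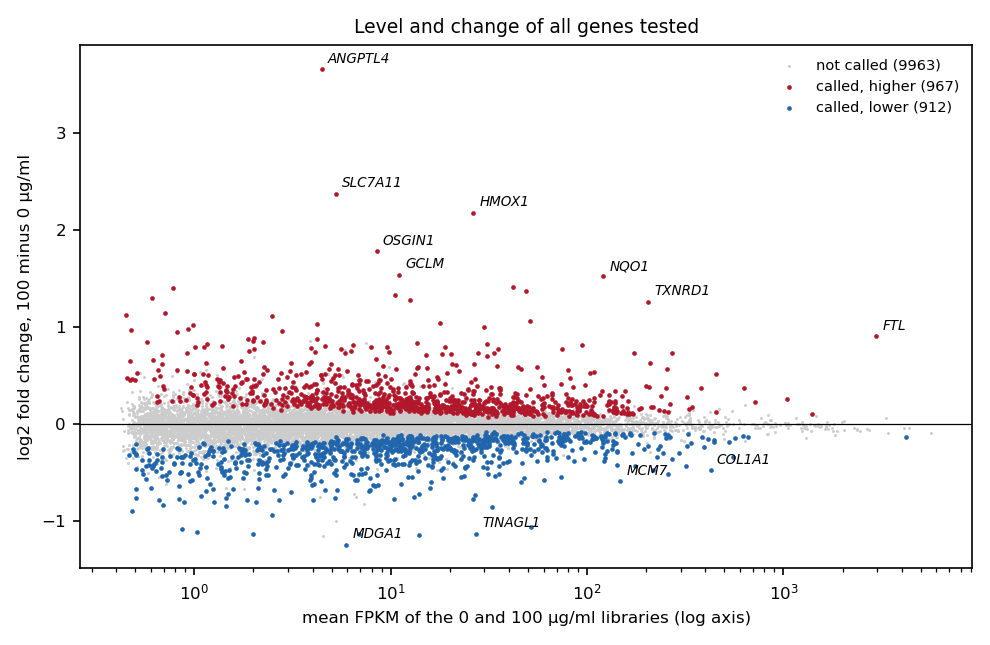
Log2 fold change at 100 against 0 µg/ml (vertical axis) against the mean FPKM of the 6 libraries (horizontal, log axis) for each of the 11842 genes tested; red points are the 967 genes called higher, blue points the 912 called lower and grey points those not called. ANGPTL4 has the largest fold (3.66), and FTL (0.91) stands out near the upper end of the level range.

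How often a gene was called depended on its level. Of genes with a mean FPKM under 1, 7.5% were called, against 13% from 1 to 10, 21.4% from 10 to 100 and 22.8% above 100. The median SE fell over the same classes from 0.106 to 0.042, so changes of a given size were called less readily in weakly expressed genes. Recovered totals ran from 20560003 to 27908485 reads per library at 0 µg/ml and from 13919066 to 37382244 at 100 µg/ml. The smallest of these belonged to library 3 at 100 µg/ml. That library lay farthest from the controls, in the direction of the change, for 1093 of the 1879 called genes (58.2%) and for 43.3% of the genes not called. Measured from the control mean, the median change of called genes was 0.227, 0.218 and 0.268 in libraries 1, 2 and 3. Without library 3 at 100 µg/ml 1214 genes were called, 628 higher and 586 lower, and without library 1 at 0 µg/ml 1293 were.

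Protein-coding genes made up most of the calls: 910 of 10403 rose and 864 fell. Among 918 long noncoding RNAs 40 rose and 40 fell, which is 8.7% called against 17.1% of protein-coding genes. Together the genes that rose took 8.24%, 8.32% and 8.13% of the summed FPKM in the 3 control libraries and 10.1%, 10.2% and 10.3% at 100 µg/ml. The genes that fell took 9.5%, 9.36% and 9.31% in the controls and 8.1%, 8.21% and 7.92% at 100 µg/ml. Part of the gain lay in a single gene: FTL, the light chain of the iron store ferritin, went from 0.512%, 0.496% and 0.517% of the summed FPKM to 0.989%, 0.959% and 0.916%.

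The largest rises were led by ANGPTL4, a secreted inhibitor of lipoprotein lipase. Its FPKM was 0.303, 0.231 and 0.149 in the controls and 8.23, 8.08 and 9.77 with oxLDL (fold 3.66, SE 0.16, adjusted p = 1.03e-10), from 8 to 12 reads a library in the controls and 262 to 582 at 100 µg/ml. ANGPTL4 passed the filter only through the oxLDL libraries. RAB11B-AS1, which overlaps it on the opposite strand, had a mean FPKM of 1.41 in the controls and 2.09 with oxLDL, and the library kit does not mark strand. Next came SLC7A11, the transport subunit of the cystine and glutamate exchanger, with FPKM of 1.35, 1.42 and 1.31 in the controls and 8.45, 9.26 and 9.75 with oxLDL (fold 2.38, SE 0.063, adjusted p = 2.33e-13). The oxLDL libraries of each gene lay above its controls, as the naming rule requires.

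Below these, the rises took in genes of several kinds. SERPINE2, a secreted inhibitor of thrombin and urokinase (chromosome 2, 223975045 to 224039286, hg38), stood at 24.9, 29.5 and 26.5 FPKM in the controls and at 64.6, 65.4 and 83.4 with oxLDL (fold 1.38, SE 0.16, adjusted p = 1.73e-05). SMOC1, a matricellular protein that binds calcium (chromosome 14, 69879416 to 70032366), went from 1.42, 1.45 and 1.29 to 3.69, 3.47 and 3.58 (fold 1.11, SE 0.082). HAS2, a hyaluronan synthase (chromosome 8, 121612116 to 121641440), went from 2.65, 2.62 and 2.45 to 5.19, 5.5 and 6.74 (fold 1.03, SE 0.12). UGDH makes UDP-glucuronate, which is used both for hyaluronan and for conjugation of foreign compounds. Its FPKM was 20.1, 19.8 and 19.3 in the controls and 40.1, 40.5 and 39.5 with oxLDL (fold 1.00, SE 0.033, adjusted p = 1.38e-12).

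TRIM16, a tripartite motif protein reported to act with NRF2 (chromosome 17, 15627966 to 15684311), rose from 7.16, 7.08 and 7.16 FPKM to 19.1, 18.8 and 16.2 (fold 1.28, SE 0.058). Its near-identical relative TRIM16L (chromosome 17, 18697998 to 18736112) rose from 5.48, 5.77 and 5.99 to 15, 15.7 and 14.8 (fold 1.33, SE 0.084), and reads could be divided between them in counting, so the size for each is uncertain. KCNJ2, an inward rectifier potassium channel, had 0.442, 0.515 and 0.412 FPKM in the controls and 1.18, 1.29 and 1.71 with oxLDL (fold 0.98, SE 0.15, adjusted p = 0.000235). It is overlapped on the opposite strand by KCNJ2-AS1, at a mean of 0.386 and 0.624 FPKM. DOCK4, an exchange factor for Rac, had 1.67, 2.03 and 1.47 FPKM in the controls and 3.24, 3.37 and 5.01 with oxLDL (fold 0.96, SE 0.20, adjusted p = 0.00337), with library 3 well above the other oxLDL libraries. LINC02057, a long noncoding RNA, spread more widely: 0.304, 0.405 and 0.728 FPKM without and 1.92, 1.17 and 1.35 with oxLDL (fold 1.02, SE 0.23, adjusted p = 0.00596). Its controls held 4, 7 and 13 reads and its oxLDL libraries 22, 28 and 12.

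Among the falls, MDGA1, a membrane-anchored adhesion protein, had the largest fold, from 9.32, 7.88 and 8.48 FPKM in the controls to 3.56, 3.68 and 2.77 (-1.24, SE 0.20, adjusted p = 0.000366). The rank of MDGA1 holds on the scale used, where the constant added to FPKM shrinks folds of weakly expressed genes. Over the other settings the lowest fold was -1.828 for WNT7B, -1.735 for ELF3, -1.463 for ATOH8, -1.388 for OLR1 and -1.34 for MDGA1. TINAGL1, a secreted matrix protein, went from 36.8, 37.1 and 38.2 to 17.3, 17.9 and 15.3 FPKM, the smallest SE among the 8 folds of -1 and below (-1.13, SE 0.051). SCD, the desaturase that makes oleate and palmitoleate (chromosome 10, 100347233 to 100364826), stood at 43.4, 42 and 42.4 FPKM in the controls and at 24.9, 23.9 and 21.2 with oxLDL (-0.86, SE 0.091, adjusted p = 7.43e-06). The groups of these genes did not overlap, as the naming rule requires.

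Further falls were in surface and signalling genes at lower levels. CD24, a small glycosylated surface protein (chromosome 6, 106969831 to 106976855), went from 4.9, 5.47 and 5.3 to 2.58, 2.89 and 3.02 FPKM (-0.78, SE 0.061, adjusted p = 1.75e-07). GFRA1, a receptor subunit for a glial growth factor, went from 3.64, 3.42 and 3.56 to 2.11, 2.01 and 1.48 (-0.78, SE 0.11). NPR3, the clearance receptor for natriuretic peptides, went from 7.12, 6.16 and 6.63 to 4, 4.21 and 2.96 (-0.77, SE 0.17), and NPPB, which encodes a natriuretic peptide precursor, from 74.3, 61.5 and 74.5 to 37.9, 36.8 and 26 (-1.06, SE 0.20). In GFRA1, NPR3 and NPPB library 3 at 100 µg/ml was the lowest of all 6. ATOH8 and ZBED2, transcription factors at about 1 FPKM in the controls, fell by 0.84 and 0.77 on the log2 scale (SE 0.11 and 0.15). The secreted protein CRISPLD2 (-0.94, SE 0.17), MEGF6, which carries EGF-like repeats (-0.81, SE 0.12), and the RING-finger gene RNF207 (-0.80, SE 0.13) also fell. RNF207 is overlapped on the opposite strand by RPL22 and ICMT, at means of 284 and 36 FPKM in the controls.

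Of the 40 genes with the largest named changes, 3 lost their call when a library was left out. MMP1, interstitial collagenase, had 45.5, 48.4 and 91.1 FPKM with oxLDL against 18.8, 27 and 20 without (fold 1.41, SE 0.36, adjusted p = 0.0121), and without library 3 at 100 µg/ml its fold was 1.10 (adjusted p = 0.0754). Without library 1 at 0 µg/ml the fold was 1.31 (adjusted p = 0.0520). CLIC3, a chloride channel family member, had 9.73, 8.73 and 4.8 against 13.8, 11.3 and 14.3 (-0.77, SE 0.21, adjusted p = 0.0168). Its fold was -0.48 without library 3 at 100 µg/ml (adjusted p = 0.0898), -0.73 without library 1 (0.0608) and -0.71 without library 3 (0.0633) at 0 µg/ml, and its adjusted p was 0.0518 with only the libraries of both doses in the fit. H2AC20, a histone H2A gene with near-identical copies, had 1.36, 1.9 and 0.582 against 2.76, 2.55 and 1.96 (-0.78, SE 0.24, adjusted p = 0.0327). Its fold was -0.46 without library 3 at 100 µg/ml (adjusted p = 0.177), -0.70 without library 1 (0.119) and -0.75 without library 2 (0.0896) at 0 µg/ml. It also missed the threshold in limma-voom on recovered reads (0.0706) and with only the libraries of both doses (0.0802).

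**Figure D2:**
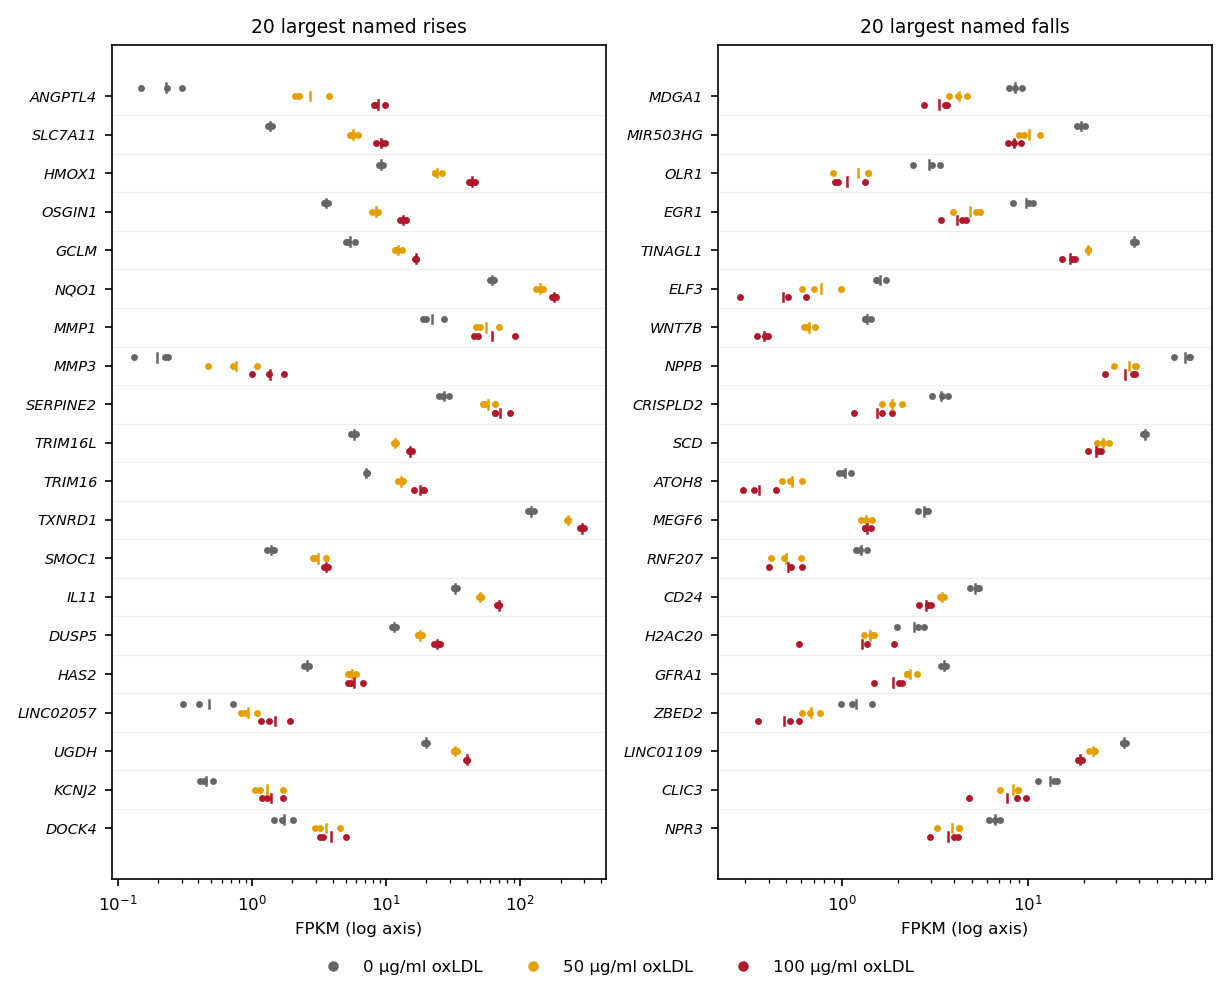
FPKM (log axis) in each library at 0, 50 and 100 µg/ml for the 20 largest named rises (left) and the 20 largest named falls (right), with points for libraries and short lines for means. Red points (100 µg/ml) lie wholly to the right of the grey points (0 µg/ml) on the left panel and wholly to their left on the right panel, as the naming rule requires; single red points stand apart in MMP1, DOCK4, ELF3 and H2AC20.

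Genes of the antioxidant response rose in cystine uptake, glutathione cycling, thioredoxin reduction and NADPH supply. Of 10 genes for cystine uptake and the glutathione cycle 5 rose and 0 fell (median fold 0.093). GCLM, the modifier subunit of the enzyme that begins glutathione synthesis, had 5.04, 5.88 and 5.25 FPKM in the controls and 16.7, 16.4 and 16.7 with oxLDL (fold 1.54, SE 0.061). GSR, which reduces oxidized glutathione, had 14.5, 13.3 and 13.4 and then 23.4, 24.3 and 24.6 (fold 0.79, SE 0.038, adjusted p = 3.09e-10). SLC3A2, the heavy chain that SLC7A11 pairs with, had 90.2, 86.5 and 89.3 and then 130, 128 and 128 FPKM (fold 0.54, SE 0.048). Limma-voom also called 5 of these 10 genes higher and 0 lower, and 0 fell at an unadjusted p under 0.05.

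Of 15 thioredoxin, peroxiredoxin and sestrin genes 6 rose and 1 fell (median 0.033). TXNRD1, thioredoxin reductase, reached 279, 288 and 297 FPKM from 119, 127 and 114 (fold 1.26, SE 0.040, adjusted p = 1e-12). SRXN1, which repairs overoxidized peroxiredoxins, rose from 24, 25.7 and 25.4 to 40.2, 41.1 and 44.4 (fold 0.73, SE 0.042). The member that fell was TXNIP, which binds and inhibits thioredoxin, at 18.9, 20.5 and 17 FPKM in the controls and 13.5, 14.5 and 16.2 with oxLDL (-0.34, SE 0.082, adjusted p = 0.00831).

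The supply of NADPH divided by route. In the pentose phosphate pathway TALDO1 went from 201, 200 and 217 to 303, 302 and 312 (fold 0.57, SE 0.034), and TKT rose by a fold of 0.39 (SE 0.040). Malic enzyme ME1 rose from 1.84, 1.8 and 1.49 to 3.03, 2.93 and 2.48 (fold 0.58, SE 0.075, adjusted p = 5.52e-05). The isocitrate dehydrogenases, which also make NADPH, fell: cytosolic IDH1 by 0.33 (SE 0.056, adjusted p = 0.000641) and mitochondrial IDH2 by 0.27 on the log2 scale (SE 0.053, adjusted p = 0.00217). In all, 5 of 14 genes of this list rose and 3 fell (median 0.04).

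Iron and heme genes rose as well, 5 of 14 with 0 falls (median 0.192). HMOX1, which opens the heme ring, stood at 9.2, 9.53 and 8.81 FPKM in the controls and at 42.7, 41.3 and 46.4 with oxLDL (fold 2.18, SE 0.068). FTL went from 2060, 1980 and 2130 to 4040, 3860 and 3680 FPKM (fold 0.91, SE 0.052, adjusted p = 3.14e-09), and TFRC, the transferrin receptor, from 54.3, 58.8 and 52 to 91.1, 93.3 and 98.3 (fold 0.77, SE 0.055). ALAS1, the entry enzyme of heme synthesis, rose by a fold of 0.40 (SE 0.040). Limma-voom called 6 higher and 0 lower, and 1 member was lower at an unadjusted p under 0.05. FTH1, the ferritin heavy chain, had near-identical copies in the genome and is listed at a few FPKM, so its value is uncertain and it was not called (fold 0.69, adjusted p = 0.11).

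Promoter windows were searched for the core letters of the antioxidant response element, TGACNNNGC on either strand, where N is any base. Of 27305 RefSeq windows (250 bases before to 50 after each start, GRCh38.p14) 13.6% held a match, as did 15.3% of the 9326 tested genes with a window, 21.9% of 766 that rose and 16.8% of 728 that fell. The share was 31.1% (28 of 90) among genes that rose by at least 0.5 and 17.7% among 79 that fell by as much. The letters of the AP-1 site, TGANTCA, overlap the element where it reads TGACTCAGC. They were found in 4.47% of tested genes, 9.53% of those that rose, 3.43% of those that fell and 27.8% (25 of 90) of those that rose by at least 0.5. Counting only matches that share no base with the antioxidant element, these shares were 4.02%, 7.57%, 3.30% and 21.1%. A match is a description of the letters, not of binding. Given here, 5′ to 3′ in the direction of transcription, are the 250 bases before the RefSeq start for genes that rose and hold such letters, with every match to the searched motif in capitals, the antioxidant element in the initial 5 and the AP-1 letters in IL11 and PLAUR.
GCLM: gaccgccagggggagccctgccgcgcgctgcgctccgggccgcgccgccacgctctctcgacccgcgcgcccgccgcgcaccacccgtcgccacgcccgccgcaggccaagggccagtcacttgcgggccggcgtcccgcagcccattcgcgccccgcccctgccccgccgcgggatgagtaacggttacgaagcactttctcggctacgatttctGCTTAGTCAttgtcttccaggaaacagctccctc
SERPINE2: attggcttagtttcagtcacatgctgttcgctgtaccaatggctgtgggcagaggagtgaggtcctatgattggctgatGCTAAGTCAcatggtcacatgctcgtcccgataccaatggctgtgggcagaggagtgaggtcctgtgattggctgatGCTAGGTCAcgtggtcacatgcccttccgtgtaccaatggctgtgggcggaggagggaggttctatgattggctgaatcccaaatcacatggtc
TXNRD1: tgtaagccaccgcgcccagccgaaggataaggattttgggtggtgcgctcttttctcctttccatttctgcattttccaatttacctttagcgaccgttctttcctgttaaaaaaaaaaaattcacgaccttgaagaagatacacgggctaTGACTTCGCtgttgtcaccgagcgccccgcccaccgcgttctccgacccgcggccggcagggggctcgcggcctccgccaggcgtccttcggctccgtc
SLC3A2: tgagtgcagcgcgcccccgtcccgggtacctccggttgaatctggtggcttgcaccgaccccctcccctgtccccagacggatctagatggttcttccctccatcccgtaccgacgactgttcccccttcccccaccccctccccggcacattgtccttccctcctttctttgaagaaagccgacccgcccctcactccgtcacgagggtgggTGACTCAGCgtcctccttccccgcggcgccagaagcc
ME1: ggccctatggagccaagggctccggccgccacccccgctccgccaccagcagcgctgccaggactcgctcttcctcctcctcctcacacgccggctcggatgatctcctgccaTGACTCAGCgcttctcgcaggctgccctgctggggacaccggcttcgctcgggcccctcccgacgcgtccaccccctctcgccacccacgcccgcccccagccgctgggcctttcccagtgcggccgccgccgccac
IL11: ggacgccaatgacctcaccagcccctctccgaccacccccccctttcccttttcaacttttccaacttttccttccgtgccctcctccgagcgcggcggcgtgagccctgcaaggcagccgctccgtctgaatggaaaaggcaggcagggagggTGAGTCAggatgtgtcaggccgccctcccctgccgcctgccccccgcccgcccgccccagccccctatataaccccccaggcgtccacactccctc
PLAUR: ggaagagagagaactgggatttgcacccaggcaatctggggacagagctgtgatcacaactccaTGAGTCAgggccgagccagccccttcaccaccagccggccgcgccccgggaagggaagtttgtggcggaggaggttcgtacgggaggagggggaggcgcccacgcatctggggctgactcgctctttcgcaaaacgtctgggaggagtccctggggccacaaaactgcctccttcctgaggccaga

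The GCLM window is chr1:93909431-93909680 on the minus strand, with its match beginning 34 bases before the start. SERPINE2 holds a pair of matches in chr2:224031479-224031728 (minus strand), 171 and 94 bases before a start that lies inside the span of its longest annotated transcript. TXNRD1 (chr12:104215529-104215778, plus strand) has a match 99 bases before the start. In SLC3A2 (chr11:62881449-62881698, plus strand) and ME1 (chr6:83431052-83431301, minus strand) the match reads TGACTCAGC and so holds the AP-1 letters too, 37 and 137 bases before the start. IL11 (chr19:55370464-55370713, minus strand) and PLAUR (chr19:43670170-43670419, minus strand) carry TGAGTCA at 96 and 186 bases. Windows of heme and iron genes held the antioxidant letters in 1 of 12 tested and in 0 of 4 that rose, which says only that these letters are not in these 300 bases.

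Feedback and target genes of the ERK pathway moved upward together. ERK is the kinase at the end of the Ras cascade, and its activity induces phosphatases (DUSPs) and adaptors (Sprouty and SPRED proteins) that shut it off, along with ETS factors of the ETV group. Of 16 such genes all 16 had a fold above 0, 10 rose and 0 fell (median 0.428, against -0.003 over all genes). Limma-voom also called 10 higher and 0 lower, and 12 were higher and 0 lower at an unadjusted p under 0.05. The list's summed FPKM was 115.3, 113.1 and 115.7 in the controls and 155.4, 162.7 and 162.6 with oxLDL.

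DUSP5, a nuclear ERK phosphatase (chromosome 10, 110497907 to 110511533), had 11.4, 11 and 11.9 FPKM in the controls and 22.9, 25.1 and 24.4 with oxLDL (fold 1.05, SE 0.051, adjusted p = 3.47e-10). DUSP4, also nuclear, went from 4.43, 4.73 and 4.45 to 7.79, 8.31 and 9.06 (fold 0.82, SE 0.073), and the cytosolic DUSP6 from 2.64, 2.77 and 2.81 to 5, 4.59 and 5.72 (fold 0.79, SE 0.087). SPRY4 went from 1.46, 1.29 and 1.3 to 2.49, 2.6 and 2.88 (fold 0.77, SE 0.083). The other members that rose, named after their values were seen, were ETV5 (0.71), ETV4 (0.59), SPRY2 (0.53), PHLDA1 (0.50), SPRED2 (0.28) and SPRED1 (0.26). DUSP1, a broad MAP kinase phosphatase and itself an immediate early gene, was not called (fold 0.15, adjusted p = 0.37), nor was DUSP10, which acts on JNK and p38 (fold 0.09, adjusted p = 0.56). EGR1, an immediate early target of ERK, went the other way, from 10.7, 8.37 and 10.1 FPKM to 4.43, 4.67 and 3.39 (-1.13, SE 0.21, adjusted p = 0.00118). FOSL1, an AP-1 subunit, rose from 106, 102 and 106 to 125, 134 and 139 (fold 0.34, SE 0.050, adjusted p = 0.000186), while JUND fell from 36.7, 35.1 and 38.4 to 26.1, 26 and 24.6 (-0.51, SE 0.079).

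Transcripts of the TGF-beta and BMP pathways fell more often than they rose: of 26 tested, 10 fell and 3 rose (median -0.077), with the same counts in limma-voom. SMAD3, which carries the TGF-beta signal to the nucleus (chromosome 15, 67065602 to 67195169), had 9.54, 10 and 9.77 FPKM in the controls and 6.16, 6.15 and 5.46 with oxLDL (-0.68, SE 0.082, adjusted p = 2.81e-05). ID2, a BMP target, went from 38.8, 40.3 and 41.1 to 30, 27.7 and 25.1 (-0.53, SE 0.082), and the BMP antagonist NOG from 14.6, 14.1 and 15.3 to 10.8, 10.3 and 8.56 (-0.55, SE 0.075). LTBP3, which stores latent TGF-beta in the matrix, went from 6.69, 6.5 and 5.63 to 4.3, 4.43 and 3.91 (-0.52, SE 0.081). No library with oxLDL overlapped a control in these genes, as in 1861 of the 1879 called genes and 33.7% of all genes tested.

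The inhibitory SMADs, both known as targets of the pathway, were also among the falls: SMAD6 (-0.51) and SMAD7 (-0.42), with FSTL3 (-0.35), FSTL1 (-0.30), SKIL (-0.28) and TGFBI (-0.19, adjusted p = 0.0465), named after their values were seen. The members that rose were the type I receptor ACVR1, from 5.96, 5.89 and 5.47 to 7.48, 7.69 and 7.7 FPKM (fold 0.37, SE 0.048), and the ubiquitin ligases SMURF2 (fold 0.31, SE 0.051) and SMURF1 (fold 0.22, SE 0.047). The TGF-beta receptors TGFBR1 (-0.04, adjusted p = 0.69) and TGFBR2 (0.08, adjusted p = 0.41), and SMAD2 (-0.01, adjusted p = 0.94) and SMAD4 (-0.07, adjusted p = 0.38), were not called. Among ligands, TGFB2 fell from 21.1, 19 and 18.3 to 12.6, 14.8 and 10.8 FPKM (-0.60, SE 0.13, adjusted p = 0.0049), whereas TGFB1 was not called (-0.03, adjusted p = 0.78).

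**Figure D3:**
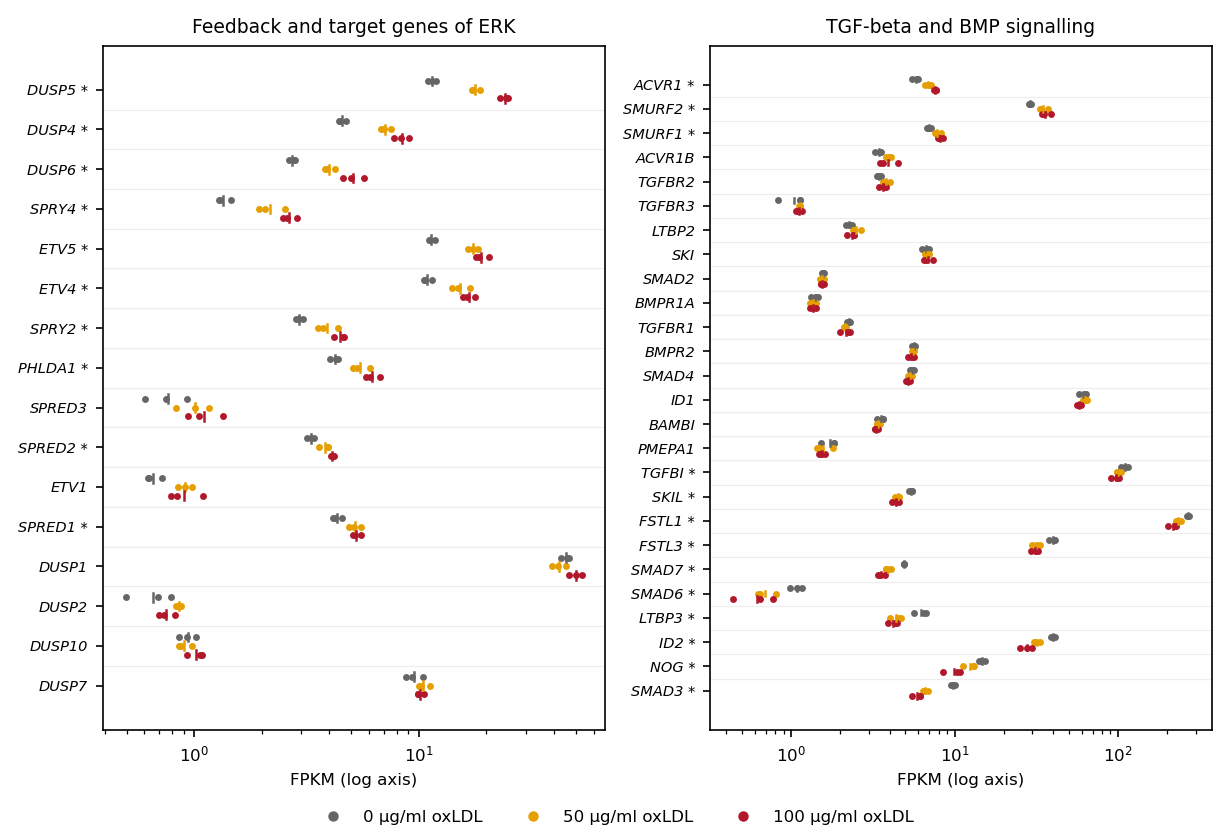
FPKM (log axis) per library at 0, 50 and 100 µg/ml for 16 feedback and target genes of ERK (left) and 26 genes of TGF-beta and BMP signalling (right), ordered by fold; asterisks mark genes called at 100 against 0 µg/ml, points are libraries and short lines are means. The red points of the upper ERK genes lie to the right of the grey points, and those of the lowest TGF-beta genes, down to SMAD3, lie to the left.

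Secreted signals split evenly, with 9 of 31 genes higher and 8 lower (median -0.002). IL11, a cytokine of the IL-6 family that signals through gp130, stood at 32.3, 32 and 34 FPKM in the controls and at 69.6, 69.7 and 67.8 with oxLDL (fold 1.06, SE 0.031, adjusted p = 3.93e-13), the smallest adjusted p after SLC7A11 and NQO1 among the named genes. LIF, of the same family, fell by 0.58 on the log2 scale, and IL6 was not called (0.08, adjusted p = 0.74). VEGFC, a growth factor for lymphatic vessels, went from 20.6, 20.2 and 21.9 to 31.4, 31.6 and 34.1 FPKM (fold 0.62, SE 0.052). VEGFA was not called (-0.11, adjusted p = 0.17).

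Wnt-related genes moved both ways. WNT7B had 1.32, 1.32 and 1.42 FPKM in the controls and 0.399, 0.383 and 0.348 with oxLDL (-1.08, SE 0.077, adjusted p = 5.33e-08). DKK1, a secreted Wnt inhibitor, rose from 178, 179 and 185 to 235, 229 and 240 (fold 0.38, SE 0.029), and WNT5A rose by 0.26 (SE 0.058, adjusted p = 0.00525; 0.0513 with only the libraries of both doses in the fit). PDGFB, a growth factor for pericytes, fell from 0.908, 0.767 and 0.86 to 0.309, 0.505 and 0.251 FPKM (-0.66, SE 0.12, adjusted p = 0.00136), and BMP4 fell by 0.55 (adjusted p = 2.23e-05). With only the libraries of both doses in the fit, 5 genes of the list were called higher instead of 9.

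The plasminogen system changed at the receptor and inhibitor. PLAUR, the urokinase receptor, had 25.8, 25.3 and 26.4 FPKM in the controls and 43.5, 41.8 and 48.7 with oxLDL (fold 0.77, SE 0.094, adjusted p = 3.01e-05), next to the rise of SERPINE2. Urokinase itself, PLAU, fell from 12.3, 11.4 and 11.9 to 9.14, 8.91 and 9.41 (-0.36, SE 0.067, adjusted p = 0.00137). In the same list of 10 genes SERPINB8 rose by 0.45 (SE 0.074), and SERPINB6 fell by 0.16 (adjusted p = 0.0483), a call lost in 8 of 14 other settings, among them without library 3 at 100 µg/ml (0.254). Of 14 metalloproteinases and their inhibitors 4 rose and 4 fell (median -0.079), with 2 higher without library 3 at 100 µg/ml or library 1 at 0 µg/ml, and 2 lower without library 1 or 3 at either dose. Stromelysin MMP3 went from 0.133, 0.224 and 0.236 to 1.35, 0.998 and 1.73 FPKM (fold 1.40, SE 0.17, adjusted p = 3.43e-05), and the membrane-bound MMP14 from 23.5, 22.6 and 23.3 to 28.6, 28 and 31.9 (fold 0.34, SE 0.060). The controls of MMP3 held 5, 11 and 12 reads, and MMP3 passed the filter only through the oxLDL libraries. The aggrecan-cleaving ADAMTS5 fell by 0.49 (SE 0.071, adjusted p = 0.000176) and the inhibitor TIMP3 by 0.27 on the log2 scale (SE 0.061, adjusted p = 0.00553). MMP24 (-0.39, adjusted p = 0.0389) and MMP17 (-0.36, adjusted p = 0.0176) also fell, and each lost its call without library 3 at 100 µg/ml (0.149 and 0.0627) and without some of the other libraries. MMP24 is overlapped on the opposite strand by MMP24OS, at a mean of 38.1 FPKM in the controls and 35.8 with oxLDL.

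Lysosomal genes rose in the pump that acidifies the organelle and in several hydrolases. Of 16 subunits of the vacuolar proton pump all 16 had a fold above 0, 8 rose and 0 fell (median 0.131). Limma-voom called 9 higher and 0 lower, and 10 were higher and 0 lower at an unadjusted p under 0.05. The summed FPKM of these subunits was 1042, 1031 and 1092 in the controls and 1196, 1168 and 1186 with oxLDL, with no overlap. ATP6V0B had 51.5, 51.9 and 52.8 and then 71.2, 64 and 72.7 FPKM (fold 0.41, SE 0.042, adjusted p = 5.36e-06), and ATP6V1C1 rose by 0.32 (SE 0.045).

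Among 33 hydrolases and membrane proteins of the lysosome 9 rose and 1 fell (median 0.031). GLA, alpha-galactosidase, went from 19.8, 21 and 21.4 to 36.4, 32.7 and 35 FPKM (fold 0.73, SE 0.045, adjusted p = 7.2e-09), and the protease CTSL from 37.8, 37.4 and 35.6 to 54.6, 53.6 and 56.4 (fold 0.56, SE 0.041). MCOLN1, the lysosomal calcium channel, went from 13.4, 13.6 and 14.7 to 16.2, 16.8 and 17.5 (fold 0.27, SE 0.056, adjusted p = 0.00323). CTSC fell by 0.13 (adjusted p = 0.0417) and lost its call in 8 of 14 other settings, among them each of the 6 that leave out a library (0.0530 to 0.151). The letters TCACGTGA, the palindromic core of the element bound by TFEB, were in 2.02% of windows of tested genes and in 3 of 19 lysosomal genes with a window. They were in 1.83% of all genes that rose and 1.24% of those that fell, in 2 of 11 proton pump genes but 0 of 5 that rose, and in 0 of 19 autophagy genes. MCOLN1 holds them at 42 and 15 bases before its start (chr19:7522374-7522623, plus strand), shown with the matches in capitals.
MCOLN1: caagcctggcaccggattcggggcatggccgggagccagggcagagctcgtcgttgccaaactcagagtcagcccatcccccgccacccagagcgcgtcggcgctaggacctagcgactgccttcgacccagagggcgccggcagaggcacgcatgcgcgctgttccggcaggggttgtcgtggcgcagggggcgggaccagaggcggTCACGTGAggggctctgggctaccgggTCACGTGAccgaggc

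Among lists of protein quality control, those of the proteasome and of heat shock proteins held most of the calls. Of 40 proteasome subunits and assembly factors 13 rose and 0 fell (median 0.089), and limma-voom gave the same counts, with 20 higher and 2 lower at an unadjusted p under 0.05. The assembly chaperone POMP had 92.8, 91.6 and 94.4 FPKM in the controls and 113, 108 and 111 with oxLDL (fold 0.25, SE 0.053), and the lid subunit PSMD13 121, 128 and 132 and then 151, 145 and 153 (fold 0.24, SE 0.041). All subunits together summed to 5027, 5105 and 5213 FPKM in the controls and 5527, 5387 and 5492 with oxLDL. The immunoproteasome subunit PSMB10 was not called (-0.14, adjusted p = 0.12).

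Of 19 heat shock and cochaperone genes 10 rose and 0 fell (median 0.127), with HSPH1 (0.32) and HSP90AA1 (0.26) at the top, and 6 rose without library 3 at 100 µg/ml. Limma-voom called 10 higher and 0 lower, and 14 were higher and 0 lower at an unadjusted p under 0.05. Of 23 unfolded protein sensors and folding factors of the endoplasmic reticulum 3 rose and 0 fell (median 0.029), with 1 higher without library 2 or 3 at 100 µg/ml. Limma-voom called 4 of these higher and 0 lower, and 9 were higher and 3 lower at an unadjusted p under 0.05. With limma 13% of the list was called, below the 15.9% of all genes tested. Of 7 chaperonin subunits 1 (14.3%) rose and 0 fell (median 0.029), as in limma-voom and at an unadjusted p under 0.05. This share also lay below 15.9%. Among 24 ribosome biogenesis factors 23 had a fold above 0, and 6 rose and 0 fell (median 0.098), led by RRP12, from 20.8, 19.6 and 19.1 to 22.5, 23.9 and 24 FPKM (fold 0.24, SE 0.039). Limma-voom called 7 higher and 0 lower, and 11 were higher and 0 lower at an unadjusted p under 0.05. With limma 25% of these factors were called, against 15.9% of all genes tested. Cytosolic ribosomal proteins stayed uncalled: limma and limma-voom called 0 of 72, 0 had an unadjusted p under 0.05, and the median fold was -0.013.

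**Figure D4:**
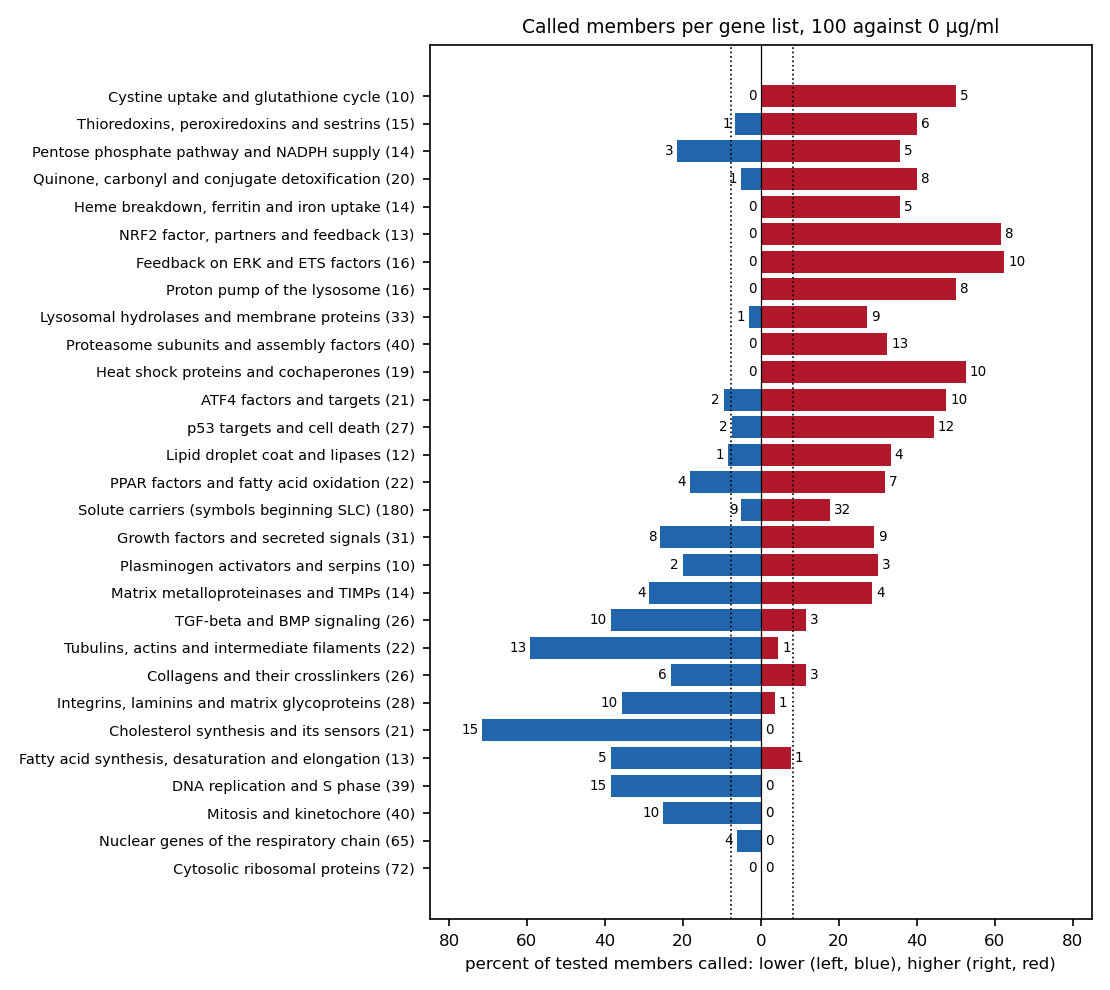
Percent of tested members called higher (right, red) or lower (left, blue) at 100 against 0 µg/ml in 29 gene lists, with the number called at the end of each bar and the number tested in brackets; dotted lines mark the shares over all genes tested, 8.17% higher and 7.70% lower. Feedback genes of ERK (10 of 16) and the NRF2 factor with its partners (8 of 13) have the longest red bars, cholesterol synthesis (15 of 21) the longest blue bar, and ribosomal proteins none.

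Lipid metabolism genes split by pathway. Of 21 genes for cholesterol synthesis and its sensors 15 fell and 0 rose (median -0.29). Limma-voom called 17 lower and 0 higher, and 17 were lower and 0 higher at an unadjusted p under 0.05. INSIG1, which retains the SREBP escort in the endoplasmic reticulum and is itself an SREBP target, went from 17.1, 16.6 and 18.4 to 11.3, 10.5 and 9.34 FPKM (-0.72, SE 0.095, adjusted p = 7.02e-05). HMGCS1, which makes HMG-CoA, went from 10, 10.3 and 10.4 to 6.6, 6.52 and 6.11 (-0.64, SE 0.080, adjusted p = 4.08e-05). The letters of the sterol element, TCACNCCAC, were in 1.17% of windows of tested genes and in 0 of 16 windows of this list, which says only that these letters are not in these windows.

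Several genes for storing and burning fatty acids rose. PLIN2, the coat protein of lipid droplets, went from 21.5, 22 and 23.4 to 40.5, 38.9 and 40.2 FPKM (fold 0.82, SE 0.042, adjusted p = 4.79e-10). G0S2, an inhibitor of droplet lipase, went from 5.33, 6.42 and 7.32 to 11.2, 9.34 and 10.7 (fold 0.67, SE 0.12, adjusted p = 0.00103). CPT1A, which admits fatty acids to the mitochondrion, went from 2.7, 2.88 and 2.85 to 5.59, 5.58 and 5.54 (fold 0.87, SE 0.053), and SLC25A20, the carnitine carrier, rose by 0.51 (SE 0.066). Of 22 genes of PPAR factors and fatty acid oxidation 7 rose and 4 fell (median 0.075). The falls were UCP2, CPT2, ECI1 and HADHA, with folds of -0.31, -0.23, -0.19 and -0.10. Without library 3 at 100 µg/ml these were -0.24, -0.17, -0.19 and -0.08 and none passed the test (adjusted p = 0.0603, 0.101, 0.0795 and 0.127). Falls numbered 2 without library 2 at 100 µg/ml, without library 1 or 2 at 0 µg/ml, or with equal library medians.

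Glycerolipid and sphingolipid genes moved singly. GPAT3, an acyltransferase that begins glycerolipid synthesis, went from 0.498, 0.66 and 0.543 to 1.11, 1.41 and 1.3 FPKM (fold 0.73, SE 0.097, adjusted p = 7.58e-05). PTDSS1, a phosphatidylserine synthase, rose by 0.27 (SE 0.041). The enzymes that activate choline and ethanolamine differed in sign: PCYT1A, for phosphatidylcholine, rose from 13.8, 13.7 and 13.8 to 15.5, 15.7 and 15.7 (fold 0.18, SE 0.039, adjusted p = 0.00508), and PCYT2, for phosphatidylethanolamine, fell from 13.2, 12.7 and 13.4 to 9.28, 10.2 and 9.58 (-0.42, SE 0.044, adjusted p = 6.76e-06). In sphingolipid metabolism SPHK1, sphingosine kinase, rose from 61.6, 60.5 and 66.2 to 83.8, 84.8 and 82.8 (fold 0.42, SE 0.050), and the ceramide synthase CERS2 from 73.2, 70.4 and 73 to 88.4, 85.9 and 87.3 (fold 0.27, SE 0.028). UGCG, which makes glucosylceramide, fell from 27.6, 28 and 26.8 to 23.1, 23 and 22.9 (-0.25, SE 0.028, adjusted p = 1.51e-05).

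Membrane transporters rose more often than they fell: of 180 solute carriers (symbols beginning with SLC) 32 rose and 9 fell (median 0.053), and 21 rose without library 3 at 100 µg/ml or without library 2 at 0 µg/ml. Without library 1 at 0 µg/ml 5 fell. After SLC7A11 the largest rises were in SLC6A6, a taurine transporter, from 8.62, 8.94 and 7.99 to 12.3, 12.7 and 13.5 FPKM (fold 0.57, SE 0.063, adjusted p = 1.33e-05), in SLC3A2, and in the glutamine transporter SLC38A1, from 4.27, 4.53 and 4.38 to 6.02, 6.37 and 7.03 (fold 0.51, SE 0.066). SLC2A3, a glucose transporter, rose by 0.44 (SE 0.065). SLC7A5 is the other well-known partner of SLC3A2 and carries large neutral amino acids. It fell from 77.5, 66.7 and 73.2 to 50.8, 51.7 and 43.2 FPKM (-0.57, SE 0.090, adjusted p = 0.00034). SLC4A8, a bicarbonate transporter, fell from 1.44, 1.3 and 1.25 to 0.746, 0.781 and 0.787 (-0.53, SE 0.074).

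Cytoskeletal and matrix genes fell more often than they rose. Among 22 tubulins, actins and intermediate filament genes 13 fell and 1 rose (median -0.152). TUBB2B, a tubulin with a near-identical relative in TUBB2A, had 57.8, 52.8 and 59.3 FPKM in the controls and 40.9, 39.5 and 34.6 with oxLDL (-0.56, SE 0.074). The keratin KRT80 went from 16, 14.9 and 15 to 11.2, 10.8 and 9.01 (-0.55, SE 0.083), and TUBA1A from 27, 27.3 and 28.4 to 21.7, 21 and 18.1 (-0.44, SE 0.075). The gene that rose was TUBA4A, from 21.3, 21.5 and 22 to 28.9, 27.4 and 26.7 (fold 0.35, SE 0.043). The filament gene VIM (-0.01, adjusted p = 0.92) and ACTB (-0.06, adjusted p = 0.57) were not called. Without library 3 at 100 µg/ml 10 of the 22 fell.

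Of 28 integrins, laminins and matrix glycoproteins 10 fell and 1 rose (median -0.042), and 6 fell without library 1 at 100 µg/ml or without library 1 or 2 at 0 µg/ml. Limma-voom called 5 higher. After TINAGL1 the largest falls were in THBS2, thrombospondin 2, from 10.5, 10.1 and 9.99 to 7.13, 7.12 and 6.53 FPKM (-0.53, SE 0.064), and in ITGB8, an integrin that activates latent TGF-beta, from 1.83, 2.01 and 1.64 to 1.23, 1.21 and 1.08 (-0.48, SE 0.085). ITGB5 rose from 9.12, 9.13 and 8.5 to 11.7, 11.7 and 11.3 (fold 0.36, SE 0.037). COL1A1, the main chain of type I collagen, fell from 525, 476 and 486 to 361, 374 and 334 (-0.48, SE 0.081, adjusted p = 0.0007), while LOX, which crosslinks collagen, rose from 22.9, 23.4 and 24.1 to 29.5, 29.7 and 30.3 (fold 0.34, SE 0.051). PDGFRB (-0.51, SE 0.097) and THY1 (-0.38, SE 0.052), the other called markers of fibroblasts and pericytes, fell as well, and the sum of that list stood lower with oxLDL, as given above. Less RNA per cell and fewer cells of a kind cannot be told apart in bulk libraries, and the part of this list in the matrix result was not tested.

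CCN2 and ANKRD1, targets shared by YAP and serum response factors, rose against this trend. CCN2, a matricellular protein, went from 209, 195 and 207 to 342, 346 and 327 FPKM (fold 0.73, SE 0.040, adjusted p = 1.5e-09), and ANKRD1 from 129, 125 and 135 to 212, 221 and 213 (fold 0.73, SE 0.038, adjusted p = 7.66e-10). AJUBA, a LIM protein of the same list, fell from 55.6, 57.7 and 52.8 to 37.4, 36.6 and 35.4 (-0.60, SE 0.061). Of the 20 genes listed 3 rose and 5 fell (median -0.105), with 1 lower without library 3 at 100 µg/ml, 3 without library 1 and 2 without library 3 at 0 µg/ml. With all libraries 40% of the list was called, against 15.9% of all genes tested.

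Genes of DNA replication fell: 15 of 39 fell and 0 rose (median -0.104), with 9 lower without library 3 at 100 µg/ml. Limma-voom called 16 lower and 1 higher, and 23 were lower and 1 higher at an unadjusted p under 0.05. MCM7, a subunit of the replicative helicase (chromosome 7, 100092728 to 100101397), went from 172, 178 and 181 to 120, 119 and 114 FPKM (-0.59, SE 0.032, adjusted p = 1.58e-09). PRPS1, which makes the ribose donor for nucleotides, went from 307, 292 and 308 to 223, 216 and 197 (-0.51, SE 0.071, adjusted p = 0.000106). CDKN1A, the p21 inhibitor of the cell cycle, rose from 48.5, 45.7 and 52 to 69.2, 69.1 and 67.3 (fold 0.49, SE 0.056), and PLK2 fell from 253, 260 and 245 to 181, 184 and 180 (-0.47, SE 0.034). In polyamine metabolism ODC1, the entry enzyme, rose from 69, 66.5 and 70.3 to 92.5, 94.9 and 99.1 (fold 0.47, SE 0.033, adjusted p = 3.83e-08), and SAT1, which starts polyamine breakdown, from 45.4, 44.1 and 45.1 to 55.6, 59.3 and 58.6 (fold 0.36, SE 0.049).

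Of 10 tested receptors for lipoproteins 2 rose and 1 fell (median 0.021), which is 30% called against 15.9% of all genes tested. CD36, the receptor in the title of the series, is not among the symbols analysed here. NLRP3, the inflammasome sensor, lay below the filter, with 0.206, 0.231 and 0.18 FPKM in the controls and 0.315, 0.42 and 0.188 with oxLDL, and was not tested. IL1B had 2.19, 1.65 and 2.15 and then 1.93, 1.88 and 2.16 FPKM, with overlapping groups (fold 0.004, SE 0.11, adjusted p = 0.989, 95% interval -0.22 to 0.23). OLR1, the lectin-like oxLDL receptor, fell from 3.05, 2.4 and 3.36 to 0.909, 1.33 and 0.952 (-1.14, SE 0.19, adjusted p = 0.000677). It is overlapped on the opposite strand by TMEM52B, at a mean of 0.451 and 0.182 FPKM. TLR4, the toll-like receptor for lipopolysaccharide, rose from 0.737, 0.804 and 0.829 to 1.38, 1.53 and 1.57 FPKM (fold 0.63, SE 0.073, adjusted p = 2.01e-05), and LRP8, a receptor of the LDL receptor family, from 2.89, 3.11 and 2.73 to 4.49, 4.5 and 5.21 (fold 0.62, SE 0.066).

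In the NF-kB list 3 of 15 genes rose and 3 fell (median -0.04), and 1 rose without library 2 or 3 at 100 µg/ml or without library 1 at 0 µg/ml. With all libraries 40% of the list was called, against 15.9% of all genes tested. The falls included NFKBIA, which encodes the inhibitor IkB-alpha, from 22.9, 22.1 and 26.2 to 18.4, 18.3 and 16.5 FPKM (-0.41, SE 0.090, adjusted p = 0.0049), and the coactivator BCL3, from 2.28, 1.79 and 2.09 to 1.14, 0.945 and 1.21 (-0.67, SE 0.14, adjusted p = 0.00281). IL18 had 14.5, 13.7 and 14.4 FPKM in the controls and 21.1, 21 and 15.2 with oxLDL (fold 0.40, SE 0.091, adjusted p = 0.00579), with library 3 close to the controls. IL32 fell from 13.4, 12.6 and 15.2 to 9.75, 8.82 and 7.8 (-0.62, SE 0.12, adjusted p = 0.00181). IFIT1, induced by interferon, fell from 3.52, 3.37 and 3.61 to 2.07, 2.52 and 2.35 (-0.51, SE 0.088, adjusted p = 0.000735).

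Noncoding transcripts changed in both directions. Of 41 host genes of microRNAs and small nucleolar RNAs 5 rose and 3 fell (median 0.08), with 3 higher without library 1 or 2 at 0 µg/ml. This is 19.5% called, against 15.9% of all genes tested. Of 363 intergenic and antisense RNAs 16 rose and 17 fell (median -0.011), which is 9.1% called and below that share. Over the other settings 7 to 19 of these rose and 10 to 19 fell. MIR503HG, from which microRNAs of the miR-424 and miR-503 cluster are known to arise, fell from 20.3, 19.4 and 18.4 to 9.16, 8.41 and 7.86 FPKM (-1.15, SE 0.080, adjusted p = 3.83e-08). MIR222HG, host of the miR-221 and miR-222 pair, rose from 1.07, 1.14 and 1.14 to 1.55, 1.58 and 1.89 (fold 0.42, SE 0.092, adjusted p = 0.00442), and MIR100HG from 7.51, 7.37 and 6.7 to 9.77, 9.66 and 9.46 (fold 0.40, SE 0.069). A host transcript is not a measure of the mature microRNA. LINC00942 rose from 4.25, 4.16 and 3.51 to 6.72, 6.85 and 7.81 (fold 0.77, SE 0.074, adjusted p = 2.62e-06). LINC01109 fell from 33.7, 32.7 and 32.8 to 19.6, 18.6 and 19.2 (-0.77, SE 0.037, adjusted p = 2.92e-10), and it overlaps LINC01111 on the same strand, which fell too (-0.68, SE 0.091), so their reads may be shared.

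Across detection, 3 symbols went from under 0.5 FPKM in each control to at least 1 FPKM in each oxLDL library: ANGPTL4 and the unnamed loci LOC105374811 (0.192, 0.0907 and 0.149, then 1.12, 1.12 and 1) and LOC102723825 (0.242, 0.223 and 0.28, then 1.03, 1.05 and 1.4). In the other direction WNT7B was alone, from 118 to 172 reads a library in the controls and 21 to 62 with oxLDL. Each of these symbols passed the filter only through the dose where it was higher.

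The libraries at 50 µg/ml show how much of this was present at the dose below. Against the same 3 controls, 906 genes (7.65%) were called at 50 µg/ml, 457 higher (3.86%) and 449 lower (3.79%). Of the genes called at 100 µg/ml, 417 that rose and 366 that fell were also called at 50 µg/ml. These comparisons share the control libraries, so their likeness is not independent. Tested directly, 100 against 50 µg/ml gave 36 called genes (0.304%), 28 higher and 8 lower, with 999 genes at an unadjusted p under 0.05. Of the 36, 27 were higher and 8 lower at 100 µg/ml in both comparisons, which share the 100 µg/ml libraries. The exception was METTL26, which was called against 50 µg/ml alone (0.17, adjusted p = 0.0351).

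The largest steps were in genes that already led the rises. ANGPTL4 had 2.08, 2.25 and 3.77 FPKM at 50 µg/ml, and its step to 100 µg/ml was a fold of 1.55 (SE 0.16, adjusted p = 0.00011). HMOX1 (0.84, SE 0.068), OSGIN1 (0.65, SE 0.078), SLC7A11 (0.63, SE 0.063) and TRIM16 (0.46, SE 0.058) followed. GABARAPL1, of the LC3 family of autophagy, was the only 1 of the 35 with the opposite sign at 50 µg/ml: its fold was -0.06 at 50 µg/ml (adjusted p = 0.571) and 0.22 at 100 µg/ml (SE 0.053, adjusted p = 0.00781), a step of 0.28 (SE 0.053, adjusted p = 0.0233).

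The steps downward were in WNT7B (-0.40, SE 0.077, adjusted p = 0.0288), TINAGL1 (-0.32, SE 0.051), RUNX2, a transcription factor of mesenchymal cells (-0.32, SE 0.060, adjusted p = 0.0233), MCM7 (-0.23, SE 0.032) and LINC01109 (-0.23, SE 0.037), with KIF20A, DONSON and PLK2 (each -0.17) completing the 8. With only the libraries of both doses in the fit 0 genes were called lower and 25 higher in this step. DONSON was named after its value was seen. RUNX2 went from 3.8, 4.07 and 4.07 FPKM at 0 µg/ml through 2.81, 3.18 and 2.81 at 50 µg/ml to 2.23, 2.41 and 2.11 at 100 µg/ml. Without library 2 at 50 µg/ml 24 genes were called in this step, 22 higher and 2 lower. The count of falls was 5 without library 1 at 100 µg/ml, 4 without library 3 at 100 µg/ml and 5 without library 3 at 50 µg/ml.

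For other genes no step above 50 µg/ml was detected. HAS2 had 5.4, 5.21 and 6.01 FPKM at 50 µg/ml and a step of 0.06 (SE 0.12, adjusted p = 0.954). MEGF6 had 1.26, 1.34 and 1.45, with a step of 0.005 (SE 0.12, adjusted p = 0.995), and RNF207 0.411, 0.602 and 0.486, with a step of 0.02 (SE 0.13, adjusted p = 0.983). HMGCS1 had 6.56, 6.68 and 6.44 (step -0.03, SE 0.080, adjusted p = 0.965), and INSIG1 10.3, 10.6 and 9.38 (step 0.04, SE 0.095, adjusted p = 0.966). A step that misses the threshold does not show that the doses act alike.

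**Figure D5:**
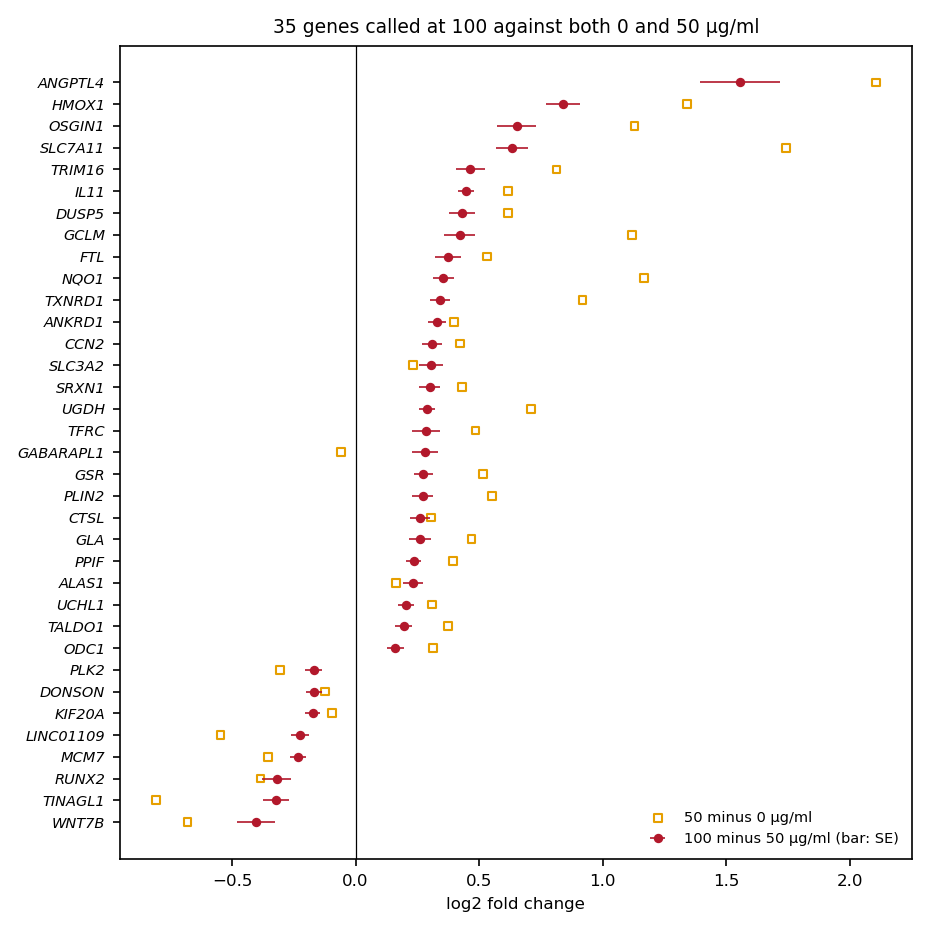
Log2 fold change from 50 to 100 µg/ml (red points, bars are 1 SE) and from 0 to 50 µg/ml (open orange squares) for the 35 genes called at 100 µg/ml against both 0 and 50 µg/ml; both values use the 50 µg/ml libraries. ANGPTL4 (1.55) and HMOX1 (0.84) have the largest steps, 27 genes lie to the right of 0 and 8 to the left, and GABARAPL1 has its square left of 0.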

How the data were processed

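The deposited table gives FPKM values, which the authors made from paired-end libraries of poly-A RNA: per the labels' protocols, RNA was extracted with TRIzol and libraries were built with a NEBNext Ultra kit for a NovaSeq instrument. Per the submitters' processing notes the tools were featureCounts, HISAT2 (2.0.5) and DESeq2, on hg38. The annotation release and any use of strand in counting are not given in the sources used here. Values of 13990 of the 13992 genes are whole multiples of what 1 read is worth (tolerance 0.05 reads), which gave the read numbers and depths quoted. The kit does not mark strand, so reads of overlapping genes cannot be told apart. Beside the cases given with their values, this touches CERS2, ELF3, HADHA, HSP90AA1, ID2, IFIT1, KIF20A, LOX, MCM7, MCOLN1, PCYT2, PSMD13, RUNX2, SLC4A8, SMURF1, SMURF2, SPHK1, THY1, TUBA1A, TUBA4A, TUBB2B, TXNRD1, UGDH and WNT5A.

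The values were tested as log2(FPKM + 0.5) with limma 3.58.1 in R 4.3.3, with a variance trend, 1 mean per dose over all 18 libraries (12 residual degrees of freedom), two-sided, and Benjamini-Hochberg adjustment over the 11842 genes at 0.5 FPKM or more in 3 of the 6 libraries compared. On simulated data for 100 against 0 µg/ml (11835 genes) the test recovered 42.0%, 87.8%, 96.0% and 100% of genes changed by 0.25, 0.5, 1 and 2 on the log2 scale, with 3 false calls. At each size only 49 or 50 genes were changed, against 1879 called in the data. No effect shared by the genes of a library was simulated, so these shares need not hold here. Alternatives were a pseudocount of 0.1 or 1, no filter or a minimum of 1 FPKM, only the libraries of the doses compared, equal library medians, limma-voom on the recovered reads, the replicate number as a block and each library left out.

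Named are the 20 largest rises and 20 largest falls among called genes without overlap and with a mean of at least 1 FPKM at either dose, up to 4 called genes in each direction of each of 62 lists, the 5 largest steps each way above 50 µg/ml, genes that cross detection, and CD36, NLRP3, IL1B, OLR1 and PLIN2. Uncalled genes given for contrast, further called members of the ERK, TGF-beta and secreted lists, and METTL26 were chosen after their values were seen. Members and lists were chosen with earlier results of these data known. Some listed genes are not reported here. Coordinates of genes and promoter windows are those of RefSeq on hg38 (GRCh38.p14). Overlaps between genes were taken from GENCODE release 29.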

Additional observations from a re-analysis of the deposited data

How the results depend on the processing

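At 100 against 0 µg/ml the count of called genes stayed between 1600 and 2007 (1879 as reported) under every other setting but the omission of libraries, which gave 1214 to 1559, with 628 to 815 higher and 586 to 788 lower. The lowest count came without library 3 at 100 µg/ml, and 942 genes were called in all 14 settings and the reported one. Between 100 and 50 µg/ml, omission of a library gave 24 to 35 called genes, with 22 to 28 higher and 2 to 8 lower. Limma-voom called 44 higher in that step, and with only the libraries of these doses 0 were lower, against 25 higher. Among 281 named genes no called value changed sign, and 80 lost their call in at least 1 setting. Of 120 list counts 58 moved by over 1.5 times somewhere. Equal library medians shifted the median fold by -0.0056.

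The labels do not say that replicate numbers pair the samples. Same-numbered libraries correlated in their deviations from the dose means at -0.088, -0.099 and -0.222 for 0 and 100 µg/ml and at 0.160, 0.062 and 0.150 for 50 and 100 µg/ml, so not every pair lay over 0.1. With the replicate number as a block 1925 genes were called, 989 higher and 936 lower, and 39 between 100 and 50 µg/ml. The median SE was 0.106 under 1 FPKM and 0.042 above 100, and depth was not varied.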

Other observations

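Calls in 4 further lists are given here, against 15.9% called over all genes tested. The shares called were 25% in the mitosis list, 51.9% in the p53, 27.8% in the interferon and 6.2% in the respiratory chain list. Of 40 mitosis and kinetochore genes 10 fell and 0 rose (median -0.049), with 6 lower without library 3 at 100 µg/ml or without library 1 or 2 at 0 µg/ml. Limma-voom called 11 lower and 0 higher, and 15 were lower and 0 higher at an unadjusted p under 0.05. Of 27 p53 targets and cell death genes 12 rose and 2 fell (median 0.156), with 7 higher without library 1 at 0 µg/ml. Of 18 interferon response genes 5 fell and 0 rose (median -0.142), with 3 lower without library 3 at 100 µg/ml or without library 1 or 2 at 0 µg/ml. Limma-voom called 6 lower and 0 higher, and 11 were lower and 0 higher at an unadjusted p under 0.05. Among 65 nuclear genes of the respiratory chain 4 fell and 0 rose (median -0.029), a share below the 7.7% called lower over all genes, with 2 lower without library 2 at 100 µg/ml or with equal library medians and 1 without library 3 at 0 µg/ml, and limma-voom called 5 lower and 0 higher, with 11 lower and 0 higher at an unadjusted p under 0.05.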
